A study of Mus musculus with 11 samples.

Results

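The comparison set intestinal epithelial cells of mice colonized with SFB against those of Control mice, 7 of the 11 libraries of the series, taken by the group in the library names: 4 SFB and 3 Control. SFB is read here as segmented filamentous bacteria. Both groups were wild-type mice on standard chow, and the SFB mice differed by the named colonization, where the labels of the Control mice give no treatment. The other 4 libraries, from mice on a low fermentable fiber diet (NFF), entered the estimate of the spread between libraries and the filter on low values, and are not compared here. Cells of the small intestine had been sorted as live, EpCAM-positive and negative for CD45, CD31 and CD44. The labels state neither the segment of the intestine, the age of the mice, the length of colonization nor whether each library is a separate animal, so the p-values measure the spread between these libraries, which may be technical.

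Segmented filamentous bacteria anchor to absorptive cells of the terminal ileum and are known for inducing T helper 17 cells, with IL-22 and IL-17 acting back on the epithelium. IL-22 signals through STAT3 and induces antimicrobial lectins and serum amyloid A, whereas interferon gamma induces immunity-related GTPases, the class I machinery and, through the transactivator CIITA, MHC class II. The epithelium itself holds absorptive enterocytes, mucus-secreting goblet cells, antimicrobial Paneth cells, hormone-secreting enteroendocrine cells and chemosensory tuft cells, and enterocytes differ along the length of the gut.

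The libraries were epithelial by their markers, but they differed in ways that the groups do not name. Epcam ranged from 489 to 670 RPKM over the 7 libraries (reads scaled to gene length and library size), and Ptprc, which encodes CD45, from 0.247 to 2.254. Of the 25 T cell markers listed only Ptprc and Itgae had a row in the deposited table, of 18 myeloid markers 3 did and of 14 B and plasma cell markers 1 did. Control 2 stood apart in genes that differ along the gut. The ileal bile acid binding protein gene Fabp6 was at 146 RPKM there and at 1762 to 4352 in the other 6 libraries. The mean of 19 distal genes was 4.40 on the log2(RPKM + 1) scale in Control 2 against 5.80 and 6.24 in Control 4 and 5. In SFB it was 4.75 to 6.42, where SFB 4 was lowest. The mean of 20 proximal genes was highest in Control 2 (7.17) and lowest in SFB 4 (4.37). Whether the libraries differed in gut segment was not tested. SFB 4 had the highest mean of 37 proliferation markers, 4.14 against 1.65 to 3.17 elsewhere, and SFB 2 the lowest mean of 21 Paneth cell markers, 3.31 against 7.15 to 9.27.

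Colonization was accompanied by higher transcripts of 6 interferon-inducible GTPase genes and of Tap1, a subunit gene of the class I peptide transporter. Lower were transcripts of the detoxification enzyme genes Ugt2b5 and Gsta4 and of the tuft and Paneth cell glycoprotein gene Cd24a. Limma on log2(RPKM + 1) with Benjamini-Hochberg adjustment called 21 of 10482 tested genes at an adjusted p under 0.05 (0.2%), 13 higher in SFB (0.124%) and 8 lower (0.0763%). At an unadjusted p under 0.05 stood 1265 genes (12.1%), of which 573 were higher (5.47%) and 692 lower (6.6%). The libraries of the groups did not overlap in 1018 genes (9.71%), 384 higher (3.66%) and 634 lower (6.05%). By their known roles Tgtp1, Tgtp2, Irgm1, Irgm2, Iigp1, Ifi47, Tap1, Nlrc5 and H2-Q9 are interferon-inducible or act in antigen presentation, and the higher genes also included Wtip, Jdp2 and Plet1. The 8 lower genes were Ugt2b5, Rgn, Aadac, Gsta4, Acaa2, Scgb2b17, Fcna and Cd24a. When only the 7 Control and SFB libraries were fitted, 1 gene was called, Ugt2b5. Leaving out NFF changes the estimate of the spread but not the fold changes, so the direction could not turn there. With the replicate number as a block 0 were called, while all 21 kept their direction. Of the 21 genes 6 (H2-Q9, Iigp1, Nlrc5, Plet1, Tgtp1 and Tgtp2) passed the filter on low values only with the SFB libraries, in which they are higher, and all 6 were also called with no filter. Of all 10482 tested genes 352 passed it only with the SFB libraries, among them the uncalled Ifi44, Tlr1, Cd274 and Cd44. The counts over the lists below can include such genes.

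**Figure D1:**
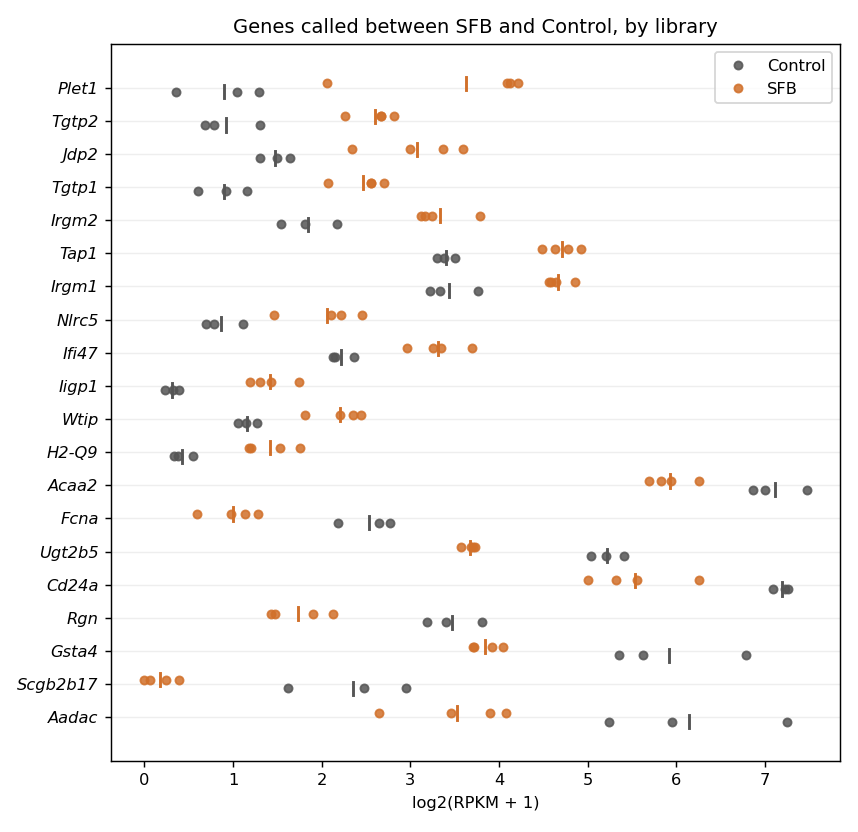
Levels of 20 of the 21 genes called between SFB and Control, 1 dot per library (3 Control in grey, 4 SFB in orange) on the log2(RPKM + 1) scale, with a vertical tick at the mean of each group. In each row the SFB libraries lie entirely to 1 side of the Control libraries, and SFB 1 lies apart from the other SFB libraries for Plet1.

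The immunity-related GTPases, which act on the vacuoles of intracellular pathogens, accounted for 6 of the 13 genes that rose. Of the 6, Tgtp1, Tgtp2 and Iigp1 passed the filter on low values only with the SFB libraries, and all 3 were also called with no filter. Irgm1, on chromosome 11 (48865245 to 48871420, GRCm38), stood at 9.05, 12.5 and 8.30 RPKM in Control 2, 4 and 5 and at 22.7, 28.0, 24.1 and 22.96 in SFB 1 to 4, and rose by 1.23 ± 0.14 on the log2 scale (SE; limma adjusted p = 0.0044). Irgm2, of the same family, stood at 3.51, 2.52 and 1.91 RPKM in Control against 7.70, 12.8, 8.46 and 7.98 in SFB. It rose by 1.49 ± 0.22 (limma adjusted p = 0.02). Every SFB library lay above every Control library for both genes. Tgtp2 stood at 1.48, 0.722 and 0.607 RPKM in Control against 3.80, 6.02, 5.36 and 5.36 in SFB. It rose by 1.68 ± 0.18 (limma adjusted p = 0.0044). Its near-identical neighbour Tgtp1 rose by 1.58, and the authors' counting could have split reads between them. Iigp1 stood at 0.306, 0.172 and 0.254 RPKM in Control, under the level at which the log2(RPKM + 1) scale keeps a fold, and at 1.47, 1.69, 2.34 and 1.28 in SFB. It rose by 1.10 (limma adjusted p = 0.01). Ifi47 rose by 1.10 from 3.44, 4.15 and 3.36 to 9.20, 11.9, 8.54 and 6.78 RPKM.

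The list of immunity-related and guanylate-binding GTPases has 20 entries, of which 14 were tested. Of these 14 genes 6 rose and 8 were not called, beside 0.124% of all tested genes called higher. Of the 14, 8 passed the filter only with the SFB libraries, so the counts and the median that follow describe them and support no direction. All 14 log2 fold changes were above 0 and 9 genes did not overlap between the groups, beside 52.5% of all tested genes above 0 and 3.66% not overlapping in this direction. The median was 1.16, against 0.01 over all tested genes. Of the uncalled members, chosen here after their values were seen, Igtp averaged 7.57 RPKM (SD 5.34, n = 3) without and 28.9 (SD 9.62, n = 4) with SFB. The log2 difference of 1.91 missed the threshold (limma adjusted p = 0.057). The guanylate-binding protein gene Gbp6 differed by 1.30 (limma adjusted p = 0.068) and Gbp3 by 0.19 (limma adjusted p = 0.784), the smallest difference in the list.

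The promoters of these GTPases are shown because several of the genes rose and because 2 short motifs recur in them. The windows run from 250 bases before to 50 bases after the annotated start in RefSeq's GRCm38.p6 annotation, 5′ to 3′ on the gene's strand. Capitals mark GAAA, any 2 bases and GAAA again on either strand, a core repeat bound by interferon regulatory factors. They also mark TTCNNNGAA, a palindrome bound by several STAT proteins, STAT3 among them.
Irgm1 promoter (chr11:48871371-48871670, minus strand): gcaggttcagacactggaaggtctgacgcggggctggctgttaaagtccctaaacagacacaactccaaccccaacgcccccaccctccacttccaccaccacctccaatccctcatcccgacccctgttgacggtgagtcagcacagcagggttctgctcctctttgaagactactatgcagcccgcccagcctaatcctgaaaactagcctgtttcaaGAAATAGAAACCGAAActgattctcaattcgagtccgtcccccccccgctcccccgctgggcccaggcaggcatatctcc
Irgm2 promoter (chr11:58214727-58215026, plus strand): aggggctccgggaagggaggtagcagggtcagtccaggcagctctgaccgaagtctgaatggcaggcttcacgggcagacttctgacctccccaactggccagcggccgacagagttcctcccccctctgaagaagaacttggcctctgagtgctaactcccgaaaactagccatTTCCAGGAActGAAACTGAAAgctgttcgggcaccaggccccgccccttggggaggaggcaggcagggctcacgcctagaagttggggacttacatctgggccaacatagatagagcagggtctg
Tgtp1 promoter (chr11:48992197-48992496, minus strand): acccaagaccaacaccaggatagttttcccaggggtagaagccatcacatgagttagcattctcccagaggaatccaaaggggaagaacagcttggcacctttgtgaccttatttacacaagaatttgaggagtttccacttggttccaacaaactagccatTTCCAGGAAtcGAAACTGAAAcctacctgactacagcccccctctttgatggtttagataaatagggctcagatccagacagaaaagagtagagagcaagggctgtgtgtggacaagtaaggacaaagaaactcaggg
Tgtp2 promoter (chr11:49064163-49064462, minus strand): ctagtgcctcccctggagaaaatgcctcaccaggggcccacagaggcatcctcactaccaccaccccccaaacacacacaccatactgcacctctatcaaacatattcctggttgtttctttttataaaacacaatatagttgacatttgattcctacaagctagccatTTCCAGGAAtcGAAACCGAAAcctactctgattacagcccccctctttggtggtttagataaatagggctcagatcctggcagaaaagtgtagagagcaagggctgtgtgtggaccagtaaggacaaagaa
In Irgm2, Tgtp1 and Tgtp2 the palindrome TTCCAGGAA stands 2 bases before the repeat, which begins 64, 77 and 70 bases before the start, and Igtp has TTCTAGGAA at the same spacing. Irgm1 has no palindrome in this window and has overlapping repeats that begin 30 and 24 bases before the start. Of the 14 tested GTPase genes 9 had a promoter in the RefSeq set. The GAAA repeat was in 8 of these (88.9%) and TTCNNNGAA in 5 (55.6%), against 3.61% and 8.09% of the 8466 tested genes with a promoter there. Of the 13 genes higher in SFB 9 had a promoter there and 4 of them held the repeat, all GTPase genes. Of the 8 lower genes 4 had a promoter there and 0 held either motif. A match describes letters in the window and was not tested as a binding site.

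Upstream of these genes, no receptor or kinase gene of interferon signalling was called. Of the 25 listed signalling genes 8 (32%), all higher in SFB, did not overlap between the groups, beside 3.66% of all tested genes in this direction. These included Irf1, a transcription factor that drives class I genes, at 52.0, 51.7 and 45.9 RPKM in Control against 70.3, 79.1, 67.3 and 66.6 in SFB (0.50; limma adjusted p = 0.085), the feedback inhibitor Socs1 (0.88; adjusted p = 0.068) and Irf8 (0.70; adjusted p = 0.082). Among members chosen after their values were seen, the interferon gamma receptor genes Ifngr1 and Ifngr2 differed by -0.15 and -0.25 and the kinase genes Jak1 and Jak2 by 0.05 and -0.10, none of them called. The median of the list was 0.19.

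Antiviral interferon-stimulated genes were less uniform. None of 28 tested members was called by limma over all genes, though 8 had an unadjusted p under 0.05, 24 were above 0 and the median was 0.46. Ifi44 came nearest (1.20; limma adjusted p = 0.051), at 1.46, 0.671 and 0.938 RPKM in Control against 4.21, 4.84, 3.56 and 2.22 in SFB. It passed the filter on low values only with the SFB libraries. The nucleic acid sensor gene Zbp1 stood at 13.5, 8.94 and 5.07 RPKM in Control against 35.2, 42.7, 29.6 and 11.5 in SFB, where SFB 4 fell inside the Control range. Ifi27 went the other way, at 28.7, 12.3 and 16.2 RPKM in Control against 10.6, 10.5, 8.29 and 4.503 in SFB (-1.06; adjusted p = 0.161). The list median was 0.24 without SFB 2 and 0.69 without Control 2.

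In class I presentation the peptide transporter gene Tap1, the transactivator gene Nlrc5 and the heavy chain gene H2-Q9 rose, while the classical heavy chain gene H2-K1 and the light chain gene B2m did not pass the test. Tap1, a subunit of the transporter that carries peptides into the endoplasmic reticulum, stood at 10.4, 9.41 and 8.88 RPKM in Control against 26.3, 29.4, 21.3 and 23.9 in SFB. It rose by 1.31 ± 0.16 (limma adjusted p = 0.0058). Psmb9, named here because it lies head to head with Tap1, with 225 bases between the annotated starts on chromosome 17, encodes an immunoproteasome subunit and stood at 14.7 RPKM in Control against 27.2 in SFB on average (0.84; limma adjusted p = 0.143). Nlrc5, which switches on class I genes, stood at 1.16, 0.616 and 0.727 RPKM in Control against 3.65, 3.30, 4.5 and 1.75 in SFB. It rose by 1.20 (limma adjusted p = 0.047). H2-Q9, a heavy chain gene of the Q region with close copies that the counting could have confused, stood at 0.464, 0.305 and 0.257 RPKM in Control against 1.88, 2.38, 1.26 and 1.31 in SFB. It rose by 1.00 (limma adjusted p = 0.029). It was not on the class I list. Nlrc5 and H2-Q9 passed the filter on low values only with the SFB libraries, and both were also called with no filter.

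Of the 28 tested class I genes 2 rose, beside 0.124% of all tested genes, and 26 were not called. Above 0 were 27, beside 52.5% of all tested genes, and 5 did not overlap (17.9%, beside 3.66% in this direction). The median was 0.35. Beta-2 microglobulin, B2m, stood at 1224, 916 and 948 RPKM in Control against 1442, 1671, 1238 and 859 in SFB, and the classical heavy chain gene H2-K1 at 114, 74.6 and 88.1 in Control against 137, 158, 111 and 79.8 in SFB, so that SFB 4 lay within or below the Control libraries for both. The 95% intervals of their log2 differences were -0.25 to 0.87 and -0.12 to 0.86, and with 1 library left out the differences reached 0.18 without SFB 2 and 0.496 without SFB 4 for B2m and 0.23 and 0.55 for H2-K1. H2-T3, which encodes the thymus leukemia antigen, a ligand of CD8 alpha homodimers on intraepithelial T cells, stood at 31.3, 27.2 and 28.3 RPKM in Control against 38.6, 41.7, 32.4 and 25.5 in SFB (0.23, 95% interval -0.11 to 0.57; limma adjusted p = 0.608). The ubiquitin-like gene Ubd had a larger difference and a wider spread, at 16.95, 11.9 and 2.36 RPKM in Control against 82.8, 189, 59.98 and 13.7 in SFB (2.74; adjusted p = 0.175). Of the constitutive proteasome genes 24 of 25 were above 0, and their median was 0.19. They had 0 called by limma, 0 at an unadjusted p under 0.05 and 0 not overlapping. Their highest library was SFB 4 and the next Control 4, which were also the highest for proliferation markers.

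Class II genes had higher values in SFB libraries without passing the test over all genes. H2-Aa, a class II alpha chain, stood at 9.42, 24.3 and 36.5 RPKM in Control against 96.9, 155, 61.6 and 56.7 in SFB, a difference of 2.01 (95% interval 0.52 to 3.49; limma adjusted p = 0.263). H2-Ab1 stood at 35.2, 60.2 and 64.8 RPKM in Control against 139.9, 201, 98.1 and 99.3 in SFB (1.30; adjusted p = 0.347). The invariant chain gene Cd74 was at 119, 287 and 255 in Control against 559, 721, 435 and 454 in SFB. For each of these genes the lowest SFB library exceeded the highest Control library, and Control 2 was the lowest of the 7. Ciita stood at 0.886, 1.37 and 1.44 RPKM in Control against 4.32, 4.38, 5.06 and 3.03 in SFB (1.21; limma adjusted p = 0.057). None of the 8 tested class II genes was called by limma, though 8 had an unadjusted p under 0.05. All 8 were above 0, beside 52.5% of all tested genes, and 6 did not overlap (75%, beside 3.66% in this direction). The median was 1.33, or 1.10 without Control 2. Class II is also carried by leukocytes, whose part in these values was not tested. Of the T cell markers Ptprc was at 0.757, 0.751 and 2.254 RPKM in Control against 1.05, 0.656, 1.35 and 0.247 in SFB, and Itgae, which encodes an integrin of intraepithelial T cells, at 0.585 to 0.923 in Control against 0.867 to 3.21 (0.57). Of the myeloid markers Itgam was higher in every SFB library (0.99), Cd14 overlapped (0.70) and Lyz2 was lower in every SFB library (-1.92), none of them called. Their summed level was 1.34 to 2.89 RPKM in Control against 1.11 to 4.55 in SFB for the T cell markers. For the myeloid ones it was 28.6 to 53.9 against 11.5 to 35.2. Of the 7 libraries SFB 2 had the lowest myeloid mean on the log2(RPKM + 1) scale, 2.14, and the lowest Paneth cell mean, 3.31. Whether Lyz2 drew reads from the Paneth cell lysozyme gene Lyz1 was not tested. Cd3e had no row in the deposited table.

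**Figure D2:**
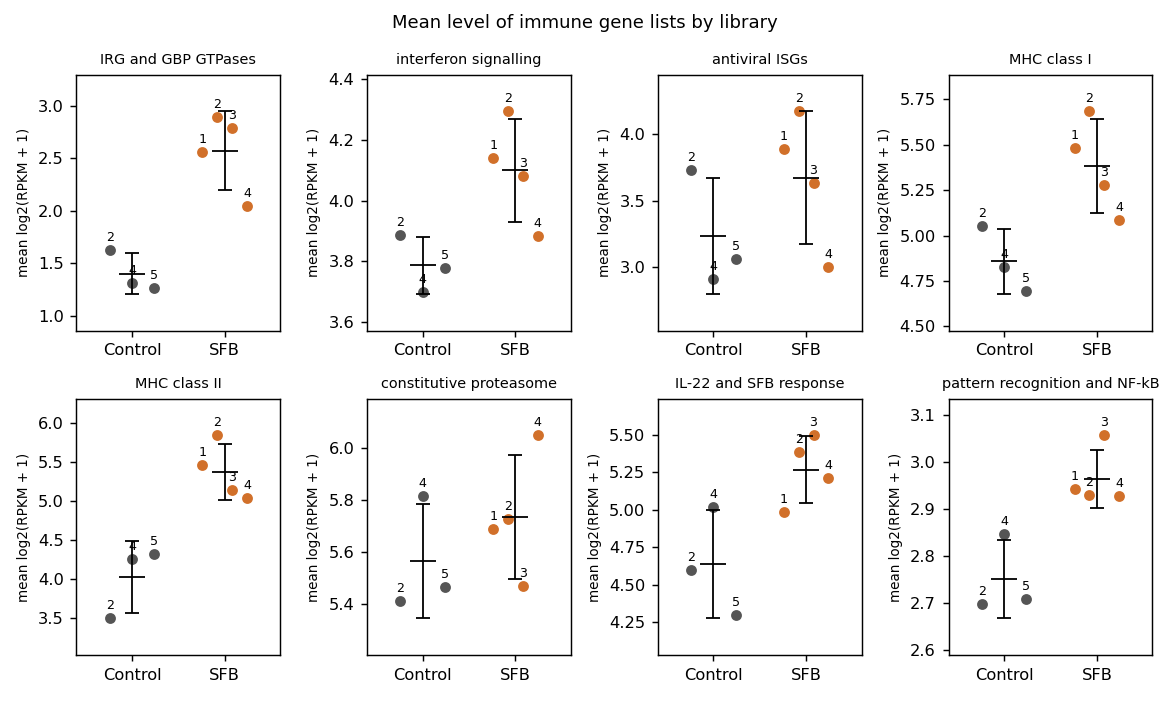
Mean log2(RPKM + 1) of the tested members of 8 gene lists in each library, with dots numbered by library (Control 2, 4 and 5 in grey, SFB 1 to 4 in orange) and bars for the mean ± SD. The groups do not overlap for the GTPase, class I, class II and pattern recognition lists, whereas SFB 4 lies among the Control libraries for the antiviral genes.

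Genes of the epithelial response to SFB and IL-22 had mostly higher values in SFB, with 17 of 22 tested genes above 0. Reg3a was among the 5 below 0, of which the lowest differed by -2.26. The antimicrobial lectin genes Reg3b and Reg3g were among the most abundant, Reg3b at 1762, 2879 and 1069 RPKM in Control against 3024, 3576, 4838 and 2908 in SFB (1.00, or 0.64 without Control 5; limma adjusted p = 0.289). Reg3g was at 834, 1544 and 640.0 in Control against 1709, 1969, 2802 and 1739.8 in SFB (1.10; adjusted p = 0.213). Their SFB libraries lay above their Control libraries, though Control 4 came close. Reg3a, a paralog, stood at 330.2, 227 and 271 RPKM in Control against 129, 169, 157 and 107 in SFB, with every SFB library below every Control library (-0.98; adjusted p = 0.057). Saa1, the acute phase gene that SFB attachment is known to induce in the ileum, stood at 9.92, 89.5 and 5.46 RPKM in Control against 70.7, 246, 343 and 88.3 in SFB. Control 4 thus lay above SFB 1 and SFB 4, and the log2 difference of 3.04 had a 95% interval of 1.10 to 4.98 (adjusted p = 0.191).

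The hydrogen peroxide and nitric oxide enzymes followed the same order of libraries in Control. Duox2, a dual oxidase, stood at 12.8, 47.5 and 30.8 RPKM in Control against 58.6, 67.9, 68.0 and 91.2 in SFB (1.37, or 0.87 without Control 2; limma adjusted p = 0.271). Nos2, the inducible nitric oxide synthase, was at 14.2, 44.2 and 32.5 in Control against 72.7, 110.1, 103 and 43.9 in SFB (1.47; adjusted p = 0.148). Control 2 was the lowest and Control 4 the highest Control library for both. Il18bp, an interferon-inducible decoy of IL-18, stood at 3.08, 2.58 and 1.38 RPKM in Control against 9.07, 14.5, 9.21 and 4.29 in SFB (1.55; adjusted p = 0.057). The fucosyltransferase gene Fut2 stood at 2.04, 1.44 and 1.66 RPKM in Control against 1.20, 2.44, 5.45 and 3.28 in SFB and Pigr, the receptor that carries IgA across the epithelium, at 789.7, 592 and 781 in Control against 861, 869, 804 and 914 in SFB. Of the 22 tested genes of this list 0 were called by limma, 13 had an unadjusted p under 0.05, and the median was 0.54. In 7 the groups did not overlap with higher values in SFB (31.8%, beside 3.66% of all tested genes). In 1 they did not overlap with lower values (4.55%, beside 6.05%). Saa2, Saa3 and Lcn2 had no row in the deposited table.

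**Figure D3:**
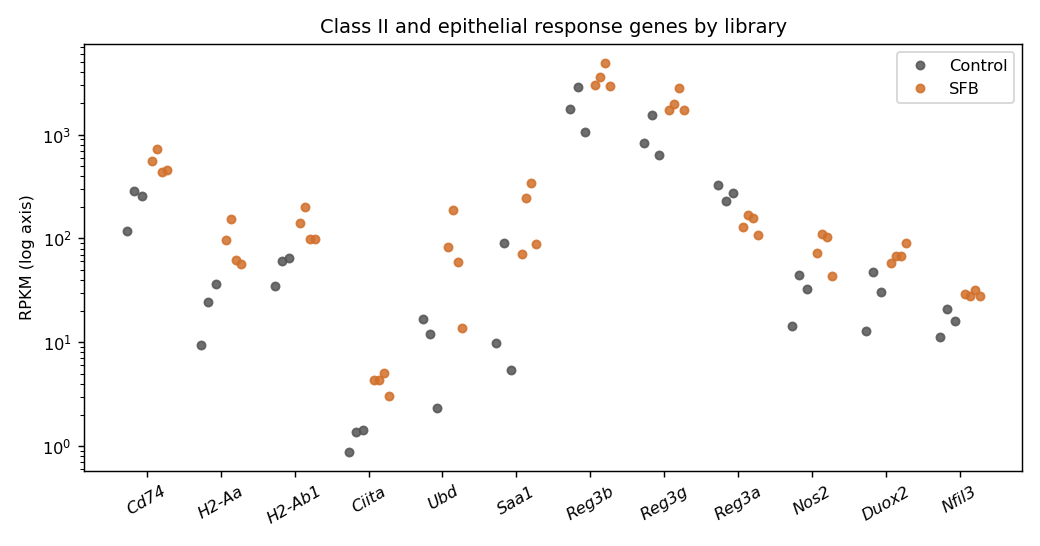
RPKM on a log axis for 12 class II and epithelial response genes, 1 dot per library (Control 2, 4 and 5 in grey and SFB 1 to 4 in orange, in that order from left to right), none of which was called. SFB libraries lie above all Control libraries for Cd74, H2-Aa, H2-Ab1, Ciita, Reg3b, Reg3g, Duox2 and Nfil3 and below them for Reg3a, and overlap them for Ubd, Saa1 and Nos2.

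Bacterial sensors and death effectors differed less. Tlr2, a receptor for bacterial lipoproteins, stood at 1.38, 1.93 and 0.772 RPKM in Control against 2.87, 3.32, 4.47 and 6.14 in SFB (1.13; limma adjusted p = 0.072). Its partner Tlr1 was at 0.879, 2.43 and 1.03 in Control against 2.48, 2.88, 3.21 and 4.88 in SFB (0.86; adjusted p = 0.146). Tlr1 passed the filter on low values only with the SFB libraries. The pattern recognition list had 0 of 22 genes called by limma, 5 at an unadjusted p under 0.05, 16 above 0 and a median of 0.16. Of 28 inflammasome and cell death genes 0 were called, 6 had an unadjusted p under 0.05 and 22 were above 0, led by Mlkl, the effector of necroptosis (0.69; adjusted p = 0.129), Zbp1 and the death ligand gene Tnfsf10 (0.53; adjusted p = 0.190).

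Ligands through which the epithelium engages intraepithelial lymphocytes, the T cells named in the series title, showed no called gene. None of 20 tested genes was called by limma, 5 had an unadjusted p under 0.05, and the median was 0.12. The butyrophilin-like gene Btnl1 stood at 89.4, 68.3 and 86.6 RPKM in Control against 100.1, 113, 74.2 and 54.5 in SFB (0.03, 95% interval -0.49 to 0.54; adjusted p = 0.983). Its partner Btnl6 was at 122, 131 and 151 in Control against 185, 216, 152 and 133 in SFB (0.33, -0.13 to 0.79). The immune checkpoint ligand gene Cd274 stood at 2.02, 0.546 and 0.735 RPKM in Control against 2.495, 5.50, 4.23 and 1.23 in SFB (1.01; adjusted p = 0.255). Cd274 passed the filter on low values only with the SFB libraries. The chemokine gene Ccl28 differed by 0.73, or 0.43 without Control 2. The chemokine gene Ccl6 had lower values in every SFB library, at 103, 94.7, 176 and 89.5 RPKM against 254, 251 and 193 in Control (-1.05; adjusted p = 0.199).

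Tuft cell markers had lower values in SFB throughout the list, and 1 of the 22 tested, Cd24a, was called, beside 0.0763% of all tested genes called lower. Cd24a, a surface glycoprotein of tuft and Paneth cells, stood at 149, 135 and 152 RPKM in Control against 75.3, 31.2, 46.2 and 39.0 in SFB. It fell by 1.65 ± 0.25 in log2 terms (limma adjusted p = 0.026). The other members missed the threshold, among them Avil, an actin-binding protein of tuft cells, at 27.1, 16.5 and 31.2 RPKM in Control against 10.8, 5.90, 4.41 and 2.46 in SFB (-2.01; adjusted p = 0.052). Alox5ap, which serves leukotriene synthesis, stood at 10.6, 6.76 and 11.6 RPKM in Control against 3.77, 1.92, 1.93 and 0.912 in SFB (-1.81; adjusted p = 0.052). The kinase gene Dclk1 was at 2.64, 2.33 and 4.61 in Control against 1.58, 0.897, 1.19 and 0.296 in SFB (-1.08; adjusted p = 0.099). Across these 4 genes SFB 1 was the highest SFB library and still lay below every Control library. All 22 tested tuft markers were below 0 and 19 did not overlap (86.4%, beside 6.05% of all tested genes in this direction), with a median of -1.53. Fewer tuft cells and less tuft RNA per cell cannot be told apart in such bulk libraries, which holds for each cell type below. The list median was -1.16 without SFB 2, SFB 4 and Control 2.

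The other secretory lineages had lower values in SFB, of which none was called, and for Paneth and enteroendocrine markers 1 library decided much of the size. Lyz1, the Paneth cell lysozyme, stood at 4766, 5267 and 2626 RPKM in Control against 2234, 28.1, 2603 and 1284 in SFB (-2.56, 95% interval -5.24 to 0.11; limma adjusted p = 0.434), with SFB 2 far below all other libraries and a difference of -1.05 without it. Pnliprp2, a relative of the pancreatic lipase on the Paneth cell list, stood at 225, 216 and 107 RPKM in Control against 50.9, 2.24, 23.2 and 15.5 in SFB (-3.44; adjusted p = 0.072). Clps, colipase, was at 489, 322 and 139.6 in Control against 74.5, 3.67, 54.3 and 31.4 in SFB. The 21 Paneth markers were all below 0, and 10 did not overlap (47.6%, beside 6.05% of all tested genes in this direction). Their median was -2.48, or -1.05 without SFB 2. Of 20 goblet markers 18 were below 0 and 9 did not overlap (45%, beside 6.05%), with a median of -0.89. Muc2, the gel-forming mucin, stood at 341, 284 and 497 RPKM in Control against 291, 191, 293 and 93.1 in SFB. Of 20 enteroendocrine markers 18 were below 0, with a median of -1.10 that was -0.36 without Control 2. Of these markers 2 did not overlap (10%, beside 6.05% of all tested genes). Chga, chromogranin A, stood at 321, 60.1 and 59.9 RPKM in Control against 62.4, 77.9, 36.1 and 32.1 in SFB, with Control 2 far above all other libraries (-1.09, or -0.29 without it). None of the Paneth, goblet and enteroendocrine genes was called by limma, and 9 of 21, 10 of 20 and 3 of 20 had an unadjusted p under 0.05, beside 12.1% of all tested genes.

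Of the proliferation markers 37 of 37 were above 0, and their median was 0.61, with 0 called by limma, 3 at an unadjusted p under 0.05 and 0 not overlapping. Mki67 stood at 1.87, 8.35 and 4.52 RPKM in Control against 5.69, 3.82, 6.99 and 16.6 in SFB, so that Control 4 was second to SFB 4. Its difference was 0.63, or 0.19 without Control 2, 1.05 without Control 4 and 0.27 without SFB 4. The median was 0.22 without SFB 4 and 0.21 without Control 2. Cd44, the crypt marker against which cells were sorted, stood at 0.800, 0.969 and 0.457 RPKM in Control against 1.46, 1.17, 2.29 and 1.90 in SFB (0.63; limma adjusted p = 0.156). Cd44 passed the filter on low values only with the SFB libraries. Stem and progenitor markers had a median of 0.16 with 0 of 18 called and 3 at an unadjusted p under 0.05, and Lgr5 stood at 0.924, 1.19 and 0.747 RPKM in Control against 1.16, 0.551, 1.96 and 1.03 in SFB. Sox9, a transcription factor of progenitors and of secretory cells including tuft and Paneth cells, stood at 14.4, 14.6 and 12.0 RPKM in Control against 7.70, 3.86, 6.86 and 9.04 in SFB (-0.94; adjusted p = 0.081).

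**Figure D4:**
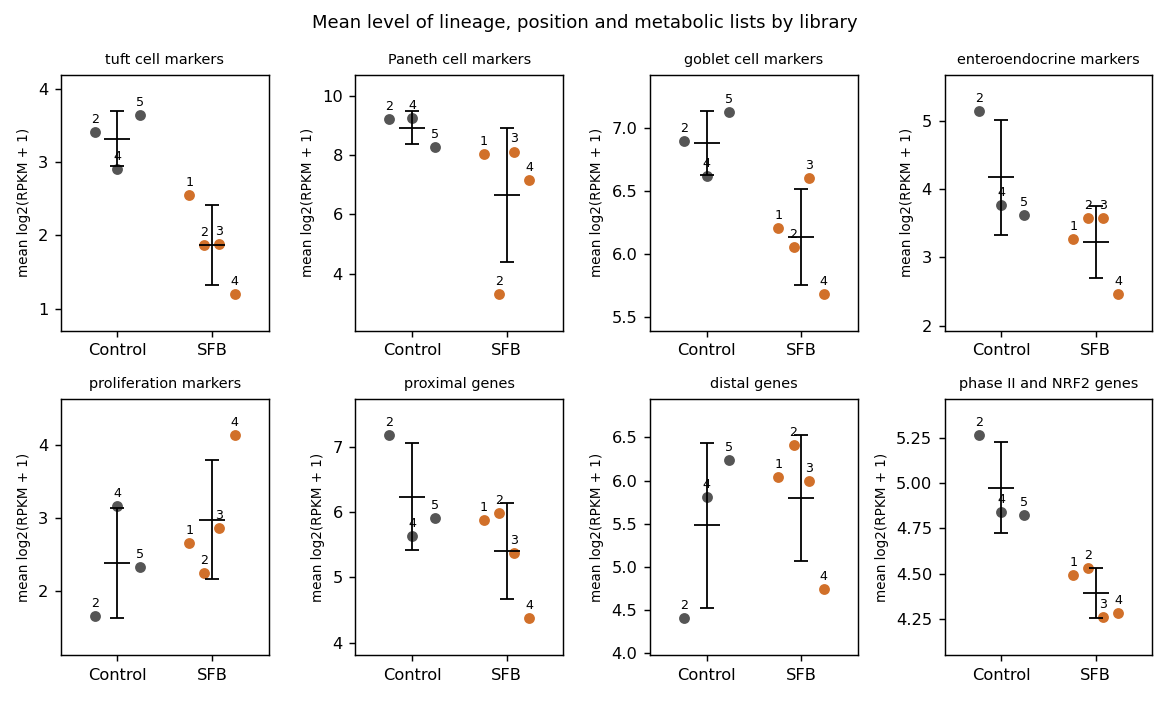
Mean log2(RPKM + 1) of 8 lists of lineage markers, positional genes and detoxification genes in each library, with dots numbered by library (Control in grey, SFB in orange) and bars for the mean ± SD. Tuft, Paneth, goblet, enteroendocrine and phase II levels do not overlap between the groups, SFB 2 is low for Paneth markers, SFB 4 is high for proliferation markers, and Control 2 is low for distal and high for proximal genes.

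Ugt2b5 and Gsta4 fell among the enzymes of detoxification, most of which had lower values in SFB without being called. Ugt2b5, a glucuronosyltransferase on chromosome 5 (87124946 to 87140340, GRCm38), stood at 35.96, 41.5 and 31.8 RPKM in Control against 11.8, 12.3, 10.9 and 12.1 in SFB. It fell by 1.55 ± 0.17 in log2 terms (limma adjusted p = 0.0044). Gsta4, a glutathione transferase for lipid peroxidation products, stood at 109, 39.8 and 48.2 RPKM in Control against 14.1, 15.5, 12.1 and 12.0 in SFB. It fell by 2.07 ± 0.35 (adjusted p = 0.044). The SFB libraries lay close together for both genes, and Control 2 was far above the other Control libraries for Gsta4. Of 54 tested phase II and NRF2 genes 2 fell, beside 0.0763% of all tested genes called lower, and 52 were not called. Below 0 were 51 of them, and 15 did not overlap (27.8%, beside 6.05%). The median was -0.45, or -0.35 without Control 2. Aadac, a deacetylase of drugs and lipids, stood at 151, 61.0 and 36.8 RPKM in Control against 15.9, 13.96, 5.27 and 9.96 in SFB. It fell by 2.63 ± 0.42 (adjusted p = 0.029), or by 2.08 without Control 2, where it was no longer called.

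Of the cytochrome P450 genes 21 of 27 were below 0, and their median was -0.45. The groups did not overlap in 10 of them (37%, beside 6.05% of all tested genes in this direction). None was called by limma, and 12 had an unadjusted p under 0.05. Cyp2c68 stood at 79.2, 55.3 and 59.0 RPKM in Control against 30.4, 32.6, 21.01 and 14.7 in SFB (-1.40; adjusted p = 0.057). Cyp3a11 was at 212, 75.8 and 124 in Control against 58.2, 44.6, 23.9 and 8.62 in SFB (-2.17; adjusted p = 0.115). Por, the reductase that supplies these enzymes with electrons, stood at 49.3, 31.7 and 35.8 RPKM in Control against 22.9, 26.5, 19.2 and 23.1 in SFB (-0.72; adjusted p = 0.085). In each of the 3 genes Control 2 was highest, and the groups did not overlap.

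Of the genes of fat, sugar and retinoid metabolism 1 fell, Acaa2, and no sugar or retinoid gene was called. Acaa2, the thiolase that ends each round of mitochondrial fatty acid oxidation, stood at 177, 127 and 116 RPKM in Control against 60.2, 55.6, 50.6 and 75.3 in SFB. It fell by 1.19 ± 0.19 (limma adjusted p = 0.034). It was the only one called of 44 genes of fatty acid oxidation and PPAR alpha, beside 0.0763% of all tested genes called lower. Below 0 were 38 of them, and 12 did not overlap (27.3%, beside 6.05% of all tested genes in this direction). Their median was -0.24. Of 20 sugar genes 0 were called, 7 had an unadjusted p under 0.05 and 17 were below 0. Galk1, galactokinase, was at 53.3, 34.9 and 31.9 RPKM in Control against 20.1, 18.2, 14.9 and 25.4 in SFB (-0.98; adjusted p = 0.069). The gluconeogenic enzyme gene Fbp1 was at 25.1, 13.9 and 12.6 in Control against 6.81, 6.34, 5.75 and 8.23 in SFB (-1.17; adjusted p = 0.098). Mlxipl, which encodes the carbohydrate-sensing factor ChREBP, differed by -0.75 (adjusted p = 0.081). Adh1, an alcohol dehydrogenase that oxidizes retinol, stood at 328, 61.8 and 72.1 RPKM in Control against 33.4, 17.9, 12.7 and 6.16 in SFB (-2.85; adjusted p = 0.069). Of 20 retinoid genes 0 were called, 7 had an unadjusted p under 0.05 and 17 were below 0, with a median of -0.29, or -0.14 without Control 2. The median of the sugar list was -0.47, or -0.22 without Control 2.

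Positional genes varied with single libraries and are given beside the metabolic ones. Proximal genes had a median of -0.47, with 16 of 20 below 0, and distal genes a median of 0.25, with 13 of 19 above 0, and without Control 2 these were -0.21 and -0.22. Fgf15, the ileal hormone, stood at 0.050, 12.0 and 27.9 RPKM in Control against 24.7, 54.5, 27.2 and 1.39 in SFB, and Apoa4, a lipoprotein of proximal enterocytes, at 2189, 54.8 and 145 in Control against 136, 157, 56.5 and 15.5 in SFB. None of either list was called by limma, and 7 proximal and 2 distal genes had an unadjusted p under 0.05. The part of position in the metabolic differences was not tested. Without Control 2, Acaa2 and Gsta4 differed by -1.01 and -1.64 and were no longer called, and Ugt2b5 differed by -1.55 and was called.

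Clock genes were divided between higher and lower values. Nfil3, a repressor whose cycling in the epithelium depends on the microbiota, stood at 11.2, 20.9 and 16.0 RPKM in Control against 29.4, 28.0, 31.6 and 27.7 in SFB (0.86; limma adjusted p = 0.085). Nr1d1, which encodes the nuclear receptor REV-ERB alpha, a repressor of Nfil3, stood at 41.9, 22.3 and 21.9 RPKM in Control against 16.9, 18.5, 9.85 and 5.77 in SFB (-1.17; adjusted p = 0.189). Tef, an activator that competes with NFIL3 for the same sites, stood at 2.71, 2.30 and 2.64 RPKM in Control against 0.732, 1.29, 1.41 and 0.368 in SFB (-0.90; adjusted p = 0.108). Bhlhe40, another clock repressor, was at 25.1, 18.5 and 31.6 in Control against 11.1, 13.003, 12.9 and 14.9 in SFB (-0.87; adjusted p = 0.151). For these 4 genes no SFB library overlapped a Control library. Of 16 clock genes 0 were called by limma, 7 had an unadjusted p under 0.05, and the median was -0.03. In 2 the groups did not overlap with higher values in SFB (12.5%, beside 3.66% of all tested genes). In 5 they did not overlap with lower values (31.3%, beside 6.05%). The hour at which tissue was taken is not given in the labels.

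The remaining called genes were on none of the lists. Plet1, which encodes a surface protein, stood at 1.46, 1.06 and 0.276 RPKM in Control against 3.17, 16.0, 17.6 and 16.5 in SFB. It rose by 2.73 ± 0.44 (limma adjusted p = 0.034). Jdp2, a repressor of AP-1, stood at 2.11, 1.47 and 1.82 RPKM in Control against 9.32, 11.1, 6.95 and 4.08 in SFB. It rose by 1.597 (adjusted p = 0.026). The LIM domain gene Wtip rose by 1.05 from 1.07, 1.40 and 1.21 to 2.52, 3.62, 4.13 and 4.43 RPKM. Each of the 3 was higher in 4 of 4 SFB libraries than in any Control library. Rgn, which encodes the calcium-binding lactonase regucalcin, stood at 13.02, 8.14 and 9.56 RPKM in Control against 2.74, 1.78, 1.69 and 3.37 in SFB. It fell by 1.73 ± 0.22 (adjusted p = 0.0084). Fcna, a lectin of the ficolin family, stood at 5.83, 3.56 and 5.24 RPKM in Control against 1.44, 0.969, 1.19 and 0.506 in SFB and fell by 1.54. The secretoglobin gene Scgb2b17 stood at 4.56, 6.73 and 2.08 in Control and 0.044, 0.185, 0 and 0.310 in SFB, listed at 0 in SFB 3, and fell by 2.18. Brush border and actin genes, whose products SFB attachment is known to rearrange, had a median of 0.07 with 0 of 30 called by limma, 0 at an unadjusted p under 0.05 and 0 not overlapping.

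**Figure D5:**
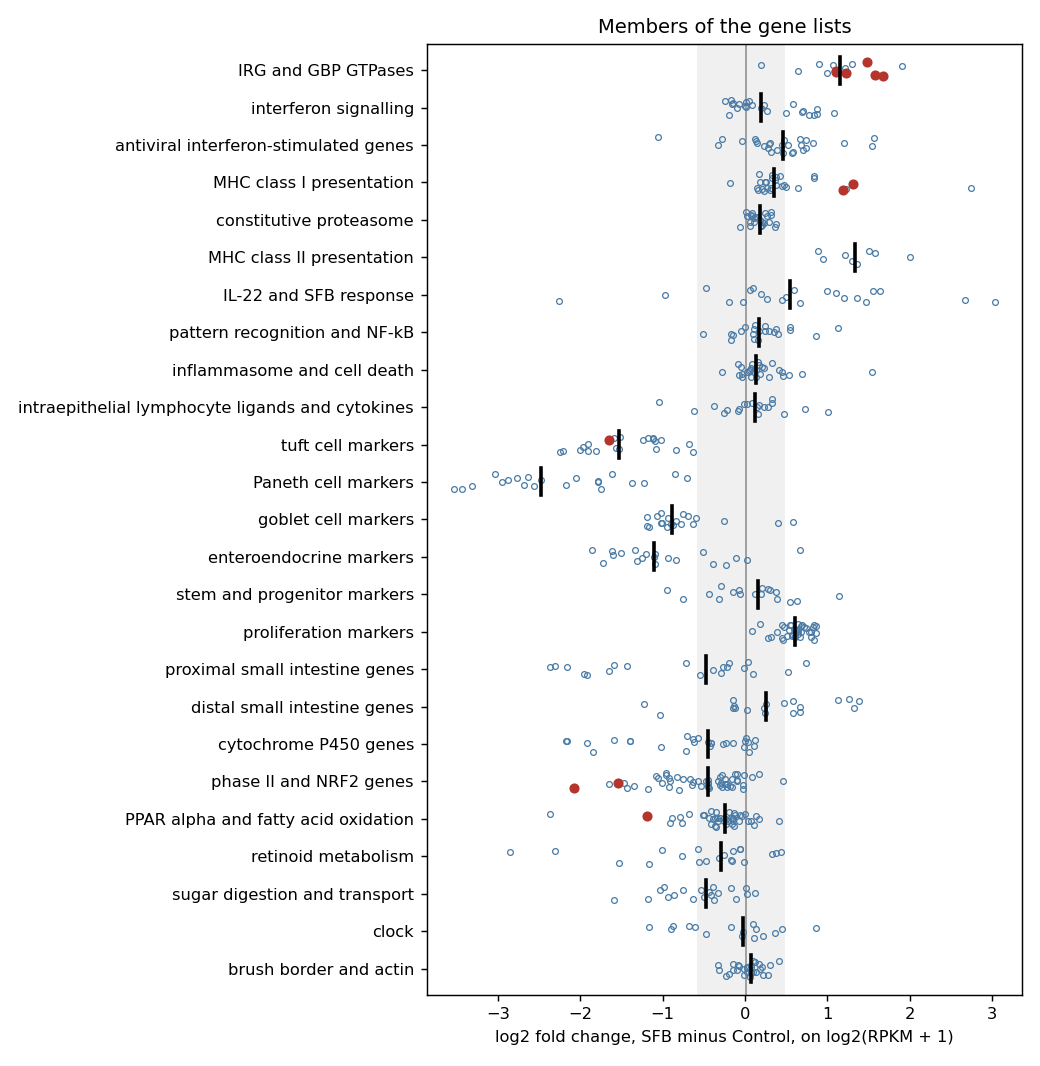
Log2 fold change (SFB minus Control, on log2(RPKM + 1)) of each tested member of 25 gene lists, with open dots for genes not called, filled red dots for called genes and a black tick at the list's median (1 called gene is not drawn). The grey band holds the 5th to 95th percentile of all tested genes, -0.57 to 0.47, and the grey line their median, 0.01. Class II members and most GTPases lie to the right of the band and tuft and Paneth members to its left.

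The calls were checked by leaving out each of the 11 libraries in turn, and Tgtp2, Tgtp1, Ugt2b5, Irgm1, Tap1 and Rgn were called in all 11 fits. The other genes below lost their calls without some library, named with the range of the log2 fold change over the 11 fits. The direction of a called gene could not turn in these fits, since the groups did not overlap in any of them. The call was lost for Iigp1 without Control 5 (0.99 to 1.18), for Irgm2 without Control 5, SFB 2 or SFB 3 (1.33 to 1.65), and for Scgb2b17 without Control 2, SFB 2 or SFB 3 (-2.54 to -1.87). Likewise it was lost for Wtip without Control 2, Control 5, SFB 2 or SFB 3 (0.97 to 1.18), for Jdp2 without Control 2, Control 4, Control 5, NFF 2, SFB 2 or SFB 3 (1.42 to 1.84), and for Cd24a without Control 2, Control 5, NFF 2, SFB 2 or SFB 3 (-1.89 to -1.48). Calls were also lost for H2-Q9 without Control 2, Control 4, Control 5, NFF 1, NFF 2, NFF 3 or SFB 2 (0.88 to 1.07), for Aadac without Control 2, NFF 1, NFF 2, NFF 3, SFB 2 or SFB 3 (-3.08 to -2.08), and for Plet1 without Control 2, Control 4, Control 5, NFF 1, NFF 2, NFF 3, NFF 4, SFB 2 or SFB 3 (2.45 to 3.25). The same held for Acaa2 without Control 2, Control 4, Control 5, NFF 2, NFF 3, NFF 4, SFB 2 or SFB 3 (-1.32 to -1.01), for Ifi47 without Control 2, Control 5, NFF 2, NFF 3, SFB 2 or SFB 3 (0.97 to 1.22), and for Gsta4 without Control 2, Control 5, NFF 2, NFF 3, SFB 2 or SFB 3 (-2.36 to -1.64). Last, the call was lost for Nlrc5 without Control 2, Control 4, Control 5, NFF 1, NFF 2, NFF 3, NFF 4, SFB 1, SFB 2 or SFB 3 (1.06 to 1.40), and for Fcna without Control 2, Control 5, NFF 1, NFF 2, NFF 3, SFB 2 or SFB 3 (-1.71 to -1.40).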

How the data were processed

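RNA of sorted small intestinal epithelial cells was made into libraries with SMART-seq v4 and NexteraXT, per the labels' protocols. The authors deposited 1 table of RPKM for 11366 genes, and the submitters' processing notes name STAR and mm10, without naming gene models or gene lengths. The table holds no read counts, so depth is unknown, and RPKM summed to 237248 to 302661 in the 7 libraries. Here 15 symbols turned into dates were restored from gene identifiers, and 10482 genes with RPKM of at least 1 in at least 3 of 11 libraries were tested, 884 being left out. Limma 3.58.1 in R 4.3.3 was fitted to log2(RPKM + 1), which understates changes of low genes, with 1 mean per group over 11 libraries and a mean trend, after a test on simulated data. Fold changes are SFB minus Control. Alternatives changed the pseudocount, filter, scaling, variance prior, block and libraries. The comparison, the gene lists and the alternatives were chosen with earlier results of these data known, and the 25 lists described were picked from 43 after their values were seen, so no list was tested. Genes named were all called genes but 1, which is not reported here, the 10 uncalled of lowest adjusted p, up to 4 called or the 3 lowest p of each list described, a preset group of SFB, class II and lineage genes, and others marked as chosen after their values were seen. Coordinates and promoters come from RefSeq (GRCm38.p6).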

Additional observations from a re-analysis of the deposited data

Results flagged for a closer look

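In 117 named genes and 25 list means the lowest or highest of the 4 SFB libraries was compared with the others by Dixon's criterion. Chance meets it in about 1 in 20 groups, and 8 values stood apart, near the number that this rate would give. Plet1 was at 3.17 RPKM in SFB 1 against 16.0, 17.6 and 16.5 in the other SFB libraries, so the size of its rise was smallest there. Lyz1 was at 28.1 RPKM in SFB 2 against 2234, 2603 and 1284. In SFB 4, the spindle gene Tpx2 was at 8.99 RPKM against 2.90, 2.35 and 2.93, the proteasome gene Psmd2 at 78.1 against 52.0, 51.3 and 48.0, and Nt5e, which encodes the ectonucleotidase CD73, at 0.138 against 1.38, 1.16 and 1.21. The mean of the clock genes in SFB 4 was 2.48 on the log2(RPKM + 1) scale against 2.79, 2.78 and 2.81. In SFB 3, the goblet cell factor gene Foxa3 was at 20.7 RPKM against 12.4, 12.6 and 12.4, and the mean of the pattern recognition genes was 3.06 against 2.94, 2.93 and 2.93. Of the 8 values 4 came from SFB 4, and their cause was not tested.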

How the results depend on the processing

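The number of called genes depended on the libraries in the fit, and the cause was not tested. It was 1 with only the 7 Control and SFB libraries, 0 with the replicate number as a block (limma, 624 genes at an unadjusted p under 0.05), 7 to 94 when 1 library was left out (7 without SFB 2, 8 without SFB 3, 10 without Control 5, 11 without NFF 2, 12 without Control 2, 39 without Control 4, 55 without SFB 1 and 94 without SFB 4) and 112 without SFB 2, SFB 4 and Control 2, of which 16 were among the 21. Other pseudocounts, filters, scalings and variance priors gave 15 to 23. The labels do not say that a replicate number marks shared animals, and Control and SFB share only 2 numbers: deviations of Control 2 and SFB 2 correlated at 0.20, of Control 4 and SFB 4 at 0.67, and of pairs with NFF at -0.30 to 0.03, so the pairing was not used. Among named genes the direction turned for Btnl1 with the block (-0.050) and without Control 4, SFB 1 or SFB 2 (-0.13 to 0.22 over the fits that leave out 1 library), and for Lgr5 with the block (-0.14) and without SFB 3 (-0.037 to 0.27). It also turned for Fgf15 and Fabp6 without Control 2 (-0.14 to 2.252 and -0.15 to 2.19) and for Ptprc without Control 5 (-0.43 to 0.017). With RPKM alone, the depth behind a low value such as that of Iigp1 or H2-Q9 is unknown.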

Other observations

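The uncalled genes of lowest adjusted p included genes of surface, transport and apoptosis proteins. Ly6a, an interferon-inducible surface protein, stood at 1.15, 6.16 and 1.08 RPKM in Control against 12.2, 15.7, 11.1 and 15.8 in SFB (2.20; limma adjusted p = 0.051). Apol10b, of the apolipoprotein L family, stood at 1.47, 0.714 and 0.858 RPKM in Control against 2.89, 4.66, 4.43 and 2.501 in SFB (1.19; limma adjusted p = 0.053). Apaf1, the scaffold of the apoptosome, stood at 5.99, 5.22 and 6.08 RPKM in Control against 9.92, 9.95, 10.9 and 9.27 in SFB (0.70; limma adjusted p = 0.053). For all 3 the SFB libraries lay above the Control libraries. Lower values in every SFB library were found for the phosphate transporter family gene Slc17a4, at 19.3, 14.4 and 22.4 RPKM in Control against 10.95, 10.8, 8.68 and 7.24 in SFB (-0.92), and for the membrane metalloproteinase gene Mmp15, at 4.93, 3.51 and 4.75 in Control against 1.08, 0.967, 2.11 and 1.18 in SFB (-1.22).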
